A study of Rattus norvegicus with 8 samples.

Results

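The 8 genes described here, Olig1, Olig2, Sox10, Nkx2-2, Myrf, Sox2, Sox8 and Sox9, encode transcription factors of the oligodendrocyte lineage, and they were taken by symbol from the 32623 genes of the deposited count tables, in which each symbol occurred once. Spinal cord cells of 8-week-old female Wistar rats had been sequenced as 8 droplet libraries with the 10x Genomics 3′ chemistry, 2 libraries from each of 4 groups, 7 days after surgery. All rats had a laminectomy that exposed the cord at T9. In the mild, moderate and severe groups a 10 g weight was then dropped on the cord from 12.5 mm, 25 mm or 50 mm, and the sham group had the laminectomy alone. Each library came from a 10-mm length of cord centred on the lesion and dissociated with enzymes. The study's text speaks of as many spinal cords as there are libraries, but the labels do not say that the 2 libraries of a group came from separate animals. If they did not, the p-values below measure only the spread between libraries, which may be technical.

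Oligodendrocyte precursors divide, migrate and mature into the cells that wrap axons in myelin, and after cord injury they multiply around the lesion and supply part of the new myelin. Olig1 and Olig2 are basic helix-loop-helix factors, Olig2 being required to specify the lineage and Olig1 being tied to maturation and repair. Sox8, Sox9 and Sox10 are related SOX factors, of which Sox10 is needed throughout the lineage, Sox9 specifies glia and is kept by astrocytes, and Sox8 overlaps in part with Sox10. Sox2 is a SOX factor of stem and progenitor cells and of astrocytes, Nkx2-2 is a homeodomain factor that times the onset of differentiation, and Myrf is the factor that, together with Sox10, switches on myelin genes in maturing oligodendrocytes.

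RefSeq promoter sequences (build GRCr8, whereas the counts had been made on Rnor_6.0) were matched by symbol for 3 of the 8 genes, Olig2, Nkx2-2 and Sox2. These 3 are shown because they alone were matched, and because basic helix-loop-helix and SOX factors are known to recognise short words of this kind. All 3 genes differed in level between the cell classes below, and a link of the words with these levels was not tested. The 250 bases before the annotated start of each gene are given 5′ to 3′ on the gene's own strand, with matches in capitals to the E-box word CANNTG or to the SOX words ACAAT and ACAAAG, searched on both strands. The Olig2 window is chr11:43961335-43961584 on the plus strand, the Nkx2-2 window chr3:155075623-155075872 on the minus strand and the Sox2 window chr2:119464881-119465130 on the plus strand.
Olig2: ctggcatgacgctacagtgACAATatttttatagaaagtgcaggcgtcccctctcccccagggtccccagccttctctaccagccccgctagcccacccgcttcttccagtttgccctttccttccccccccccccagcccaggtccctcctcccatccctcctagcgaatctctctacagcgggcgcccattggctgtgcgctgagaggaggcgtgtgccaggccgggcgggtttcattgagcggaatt
Nkx2-2: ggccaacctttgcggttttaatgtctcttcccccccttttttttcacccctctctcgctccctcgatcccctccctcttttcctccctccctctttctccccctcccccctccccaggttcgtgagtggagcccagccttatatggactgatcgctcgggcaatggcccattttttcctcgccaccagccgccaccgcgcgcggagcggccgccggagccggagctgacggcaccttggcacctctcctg
Sox2: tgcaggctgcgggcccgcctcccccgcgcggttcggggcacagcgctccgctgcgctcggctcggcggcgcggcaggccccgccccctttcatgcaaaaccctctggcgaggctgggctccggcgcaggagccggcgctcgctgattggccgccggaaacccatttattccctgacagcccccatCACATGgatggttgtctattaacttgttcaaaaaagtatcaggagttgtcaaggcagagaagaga
The Olig2 window held 1 match to ACAAT, starting at position -231 from the gene start, the Sox2 window held 1 E-box at position -65, and the Nkx2-2 window held none of the 3 words. Of the 33469 promoter windows of the same length, 65.5% held an E-box, 30.0% held ACAAT and 16.3% held ACAAAG, so the matches are a description of these windows and no more.

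Cells were placed in classes by raw UMIs (unique molecular identifiers, counts of single RNA molecules). A cell with at least 2 UMIs of Ptprz1, a phosphatase of precursors that astrocytes also carry, and under 3 of Mag plus Mog was a Ptprz1 cell, and a cell with at least 3 UMIs of the myelin genes Mag and Mog and under 2 of Ptprz1 was a Mag/Mog cell. Of the 55455 cells kept, 3638 (6.56%) were Ptprz1 cells, 3608 (6.51%) were Mag/Mog cells and 83 passed both gates. The Ptprz1 cells numbered 70 and 85 in the sham libraries, 329 and 820 after mild, 803 and 1085 after moderate and 86 and 360 after severe injury. The Mag/Mog cells numbered 1136 and 36 in the sham libraries, 565 and 1329 after mild, 164 and 117 after moderate and 66 and 195 after severe injury. At the edge of the gates stood 1057 cells with 1 UMI of Ptprz1 and 473 with 2, and 882 cells with 2 UMIs of Mag plus Mog and 242 with 3, over all cells kept. Among cells of low Mag plus Mog, Olig1 stood at 153 CPM (UMIs of a gene per 1000000 UMIs of the cells, all libraries pooled) at 1 UMI of Ptprz1, 524 CPM at 2 and 935 CPM at 3 or more. Among cells of low Ptprz1 it stood at 32.0 CPM at 2 UMIs of Mag plus Mog, 109 CPM at 3, 380.1 CPM at 4 to 9 and 749 CPM at 10 or more.

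The markers that had not set the gates separated the classes. Mag/Mog cells held 7039.5 CPM of Mbp, a main myelin protein, with all libraries pooled, against 69.4 CPM in Ptprz1 cells. Ptprz1 cells held 492 CPM of C1ql1, 118 CPM of Pdgfra and 68.4 CPM of Tnr, genes of precursors, against 12.8, 2.39 and 6.74 CPM in Mag/Mog cells, and the precursor marker Neu4 was at 0 in both. Ptprz1 cells also held astrocyte genes, with 360.3 CPM of Gfap, 26.6 CPM of Gja1 and 15.3 CPM of Aqp4, and they are therefore called by their gate. Within the gate, 1608 cells (44.2%) had at least 2 UMIs of the precursor genes Pdgfra and Cspg4 and none of Aqp4 and Gja1, and 86 cells (2.36%) had the opposite pattern. Cells passing both gates were kept apart.

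Some libraries stood apart. The UMIs deposited per library ran from 31482153 in sham replicate 2 to 131045446 in severe replicate 2, and the median UMIs per kept cell from 2745 in sham replicate 1 to 10836 in severe replicate 2. In the Ptprz1 cells of 1 sham library the 6 neutrophil markers summed to 6649 CPM, against 0.665 to 226 CPM in the other 7 libraries, and in Mag/Mog cells they reached 6269 CPM in 1 sham library. Macrophage and microglia markers summed to 11.3 to 92.1 CPM in the Ptprz1 cells of the severe libraries and to 182 to 1134 CPM in the others. The 6 astrocyte markers summed to 1003 and 2522 CPM in the Ptprz1 cells of the sham libraries and to 378 to 837 CPM in the 6 injured libraries. The part of these values in the results below was not tested beyond the fits without a library or a subset of cells given there. Of the cells kept, 694 (1.25%) had a barcode that also occurred in another library, 108 of them in the gated classes.

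Most UMIs of the 8 factors lay in these classes, which made up 6.56% and 6.51% of the cells. Ptprz1 and Mag/Mog cells held 52.3% and 40.3% of the Olig1 UMIs, 60.3% and 29.4% of Olig2, 46.8% and 40.7% of Sox10 and 58.8% and 31.3% of Nkx2-2. Myrf was placed the other way, with 76.3% of its UMIs in Mag/Mog cells and 9.73% in Ptprz1 cells. Sox8 was divided more evenly, with 49.0% in Mag/Mog and 38.0% in Ptprz1 cells. Sox2 and Sox9 had 58.6% and 63.8% of their UMIs in Ptprz1 cells and 24.0% and 10.7% in Mag/Mog cells. The 158 astrocyte-gate cells (at least 3 UMIs of Aqp4 and Gja1, and in no other gate) added 2.65% and 5.63%. Cells with these 2 genes that passed the Ptprz1 gate were not among them. A further 4.02% of Olig1 and 10.1% of Sox2 UMIs fell in the 10498 cells of no gate, whose median depth was 1368 UMIs.

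**Figure D1:**
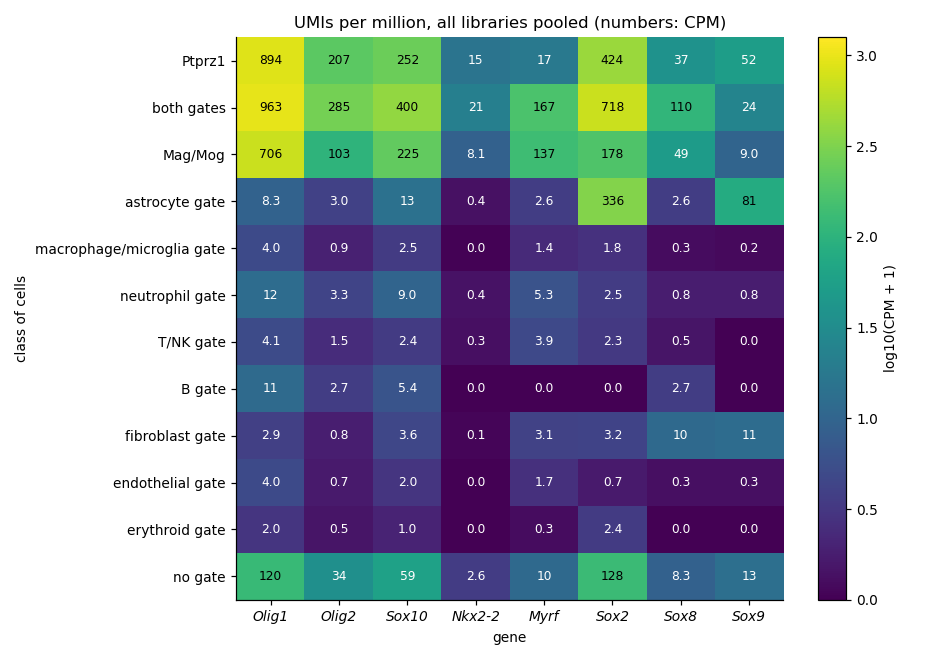
Levels of the 8 genes (columns) in the cell classes (rows) with all 8 libraries pooled, in CPM (printed in the cells) on a log10(CPM + 1) colour scale. Ptprz1 cells are brighter than the immune, endothelial, erythroid and fibroblast gates for all 8 genes, Sox9 is low in Mag/Mog cells (9.01 CPM), Myrf is brightest in Mag/Mog and both-gate cells, and astrocyte-gate cells stand out from the other types for Sox2 and Sox9 only among these genes.

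Outside the lineage, Sox2 averaged 337 ± 160.0 CPM (SD, n = 4 libraries) and Sox9 73.8 ± 28.7 CPM in astrocyte-gate cells. For Sox2 this lies within the spread of the Ptprz1 cells, at 381 ± 103 CPM (SD, n = 8), and for Sox9 it is above their mean of 47.5 ± 23.5 CPM with overlapping ranges. Olig1 and Olig2 averaged 9.86 ± 13.5 and 4.15 ± 5.04 CPM in the same astrocyte-gate cells. In the gates of immune, endothelial, erythroid and fibroblast cells the pooled levels of all 8 genes lay between 0 and 11.6 CPM, with Olig1 in neutrophil-gate cells at the top. Fibroblast-gate cells held 10.3 CPM of Sox8, of which 70 of 111 UMIs came from severe replicate 2 (31.2 CPM), with 0 to 5.50 CPM in the other 6 libraries of at least 20 such cells. They held 11.4 CPM of Sox9, which was above 0 there in each of the 7 libraries with at least 20 such cells, from 3.34 to 17.0 CPM.

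Shares of cells with a UMI were compared after thinning each cell to 1000 UMIs. Olig1 was seen in 47.9% of Ptprz1 cells (95% Wilson interval 46.3 to 49.5%) and 44.9% of Mag/Mog cells (43.3 to 46.5%). Olig2 was seen in 20.3% (19.0 to 21.7%) and 10.7% (9.69 to 11.7%), and Sox2 in 32.1% (30.6 to 33.7%) and 14.8% (13.7 to 16%). Myrf, the maturation factor, was seen in 2.42% (1.97 to 2.97%) and 12.9% (11.8 to 14%). Sox10 was seen in 22.5% (21.2 to 23.9%) and 19.8% (18.6 to 21.2%). As a background, 945 erythroid-gate cells, which should lack these factors, gave 0.212% for Olig1 and for Myrf, 0.106% for Sox2 and 0 for the other 5 genes, which allows up to 0.317%. Of all 953 erythroid-gate cells 809 came from severe replicate 2, 74 from severe replicate 1 and 66 from sham replicate 1. The background is thus mainly that of severe replicate 2 and may differ in other libraries. The median depth was 11611 UMIs in Ptprz1, 11700 in Mag/Mog and 7725 in erythroid-gate cells, and without thinning the mean share over libraries of Ptprz1 cells with Olig1 was 86.2%. The intervals and limits cover counting error only.

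The first comparison set Mag/Mog cells against Ptprz1 cells within the 8 libraries, asking how the factors differ between mature and precursor-type cells. Myrf was higher in Mag/Mog cells, Olig2, Sox2, Sox9 and Nkx2-2 were lower, and Sox8 passed the test on the higher side by a narrow margin. Of the 8 genes 6 passed, against 68.4% of all 10208 genes tested (32.6% higher and 35.8% lower), so the count itself does not set the factors apart. All sums were fitted with the quasi-likelihood test of edgeR with the library as a block, and p-values were adjusted over all genes tested.

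Myrf stood at 162 and 119 CPM in the Mag/Mog cells of the sham libraries, 94.1 and 116 after mild, 220.5 and 291 after moderate and 218 and 122 after severe injury. In Ptprz1 cells it stood at 27.1 and 20.6, 11.8 and 24.1, 15.9 and 22.3, and 3.99 and 4.34 CPM in the same order. The classes did not overlap, and Mag/Mog cells were higher in 8 of 8 libraries, with a log2 fold change of 3.79 ± 0.31 (SE) and an adjusted p of 3.33e-07.

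Olig2, the factor that specifies the lineage, was lower in Mag/Mog cells in 8 of 8 libraries. It stood at 112 ± 27.9 CPM there and at 271 ± 137 CPM in Ptprz1 cells (SD, n = 8), a log2 fold change of -0.83 ± 0.18 (adjusted p = 0.00148). Sox2, the progenitor factor, stood at 152 ± 74.0 against 381 ± 103 CPM and was lower in 8 of 8 libraries (log2 fold change -1.08 ± 0.14, adjusted p = 1.59e-05). Sox9 stood at 10.8 ± 6.55 against 47.5 ± 23.5 CPM and was lower in 8 of 8 libraries (log2 fold change -1.74 ± 0.21, adjusted p = 1.17e-05). These 4 genes, Myrf included, kept their call in all 20 alternative fits.

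Nkx2-2 was lower in Mag/Mog cells in 7 of 8 libraries, at 9.04 ± 3.86 against 17.6 ± 7.24 CPM (log2 fold change -0.58 ± 0.23, adjusted p = 0.0421), and lost its call in 8 of 20 alternatives, among them without either sham library, mild replicate 2, moderate replicate 1 or severe replicate 2 (adjusted p of up to 0.124). Sox8 had a log2 fold change of 0.67 ± 0.28 (adjusted p = 0.0499), was higher in 6 of 8 libraries and lost its call in 16 of 20 alternatives (adjusted p of up to 0.669), among them without each library but sham replicate 1. The sham libraries ran in opposite directions for Sox8, with 56.5 and 135 CPM in Mag/Mog cells and 139.6 and 130.0 CPM in Ptprz1 cells. Olig1 did not pass (log2 fold change -0.28 ± 0.23, adjusted p = 0.288), with 729 ± 237 CPM in Mag/Mog and 1188 ± 577 CPM in Ptprz1 cells. It passed on the lower side with library size as the only scaling and against the Pdgfra/Cspg4 cells alone (log2 fold change -0.74 ± 0.21, adjusted p = 0.00732). Sox10, needed along the whole lineage, did not pass (log2 fold change 0.16 ± 0.11, adjusted p = 0.222), with 229.5 ± 21.3 against 263 ± 55.5 CPM, and its sign turned to -0.17 with library size as the only scaling. That scaling moved the median log2 fold change of all genes from -0.04 to -0.36 and the calls from 3324 higher and 3656 lower to 2317 higher and 5014 lower.

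**Figure D2:**
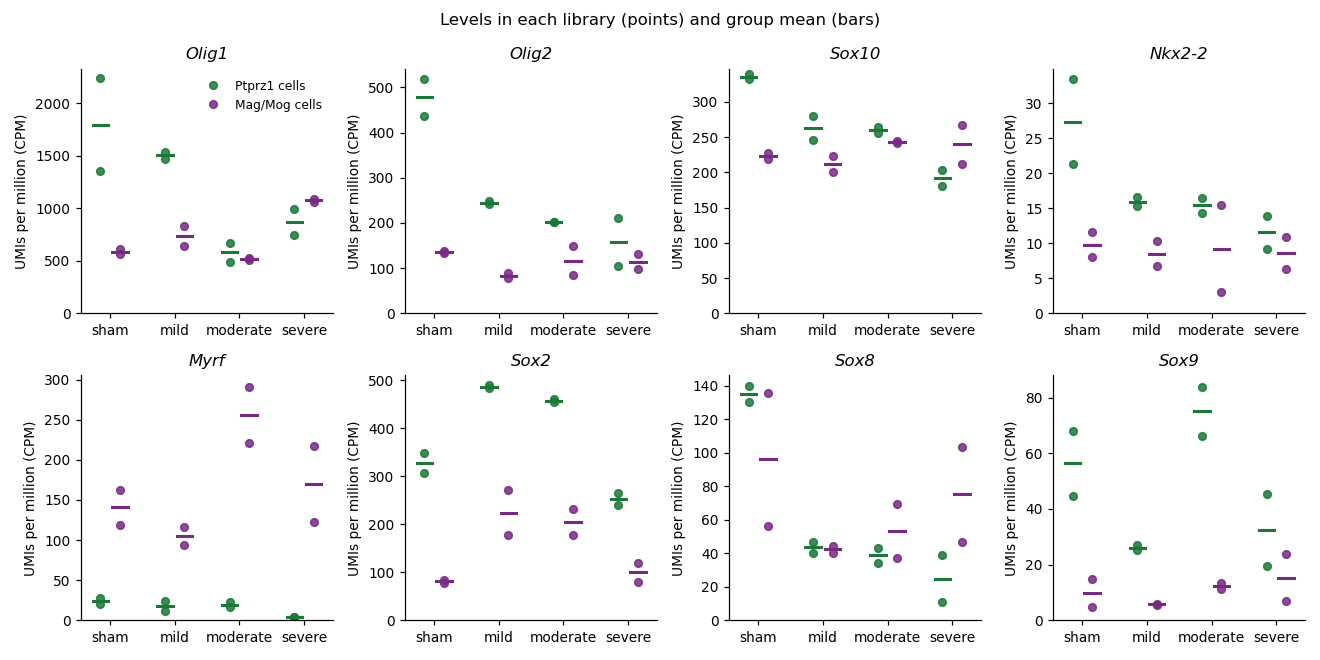
Level of each gene in each library (points) with the group mean (bars), in CPM, for Ptprz1 cells (green) and Mag/Mog cells (purple) in the sham, mild, moderate and severe groups. Myrf is higher in the Mag/Mog cells of all 8 libraries, Olig2, Sox2 and Sox9 are higher in the Ptprz1 cells of all 8, and Sox8 and Olig2 of Ptprz1 cells are highest in the 2 sham libraries.

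Other regulators of the lineage changed with the classes as well. Of 46 listed regulators 33 were tested, of which 8 were higher and 20 lower in Mag/Mog cells, with a median log2 fold change of -0.96 against -0.04 over all genes tested. St18 (log2 fold change 7.75 ± 0.28) and Nkx6-2 (7.36 ± 0.43), a homeodomain factor of maturing oligodendrocytes, had the smallest adjusted p on the higher side. Sox5 (-5.05 ± 0.28), a SOX factor that holds precursors back from maturing, was among those with the smallest on the lower side. Of 19 myelin genes tested, the known targets of Myrf and Sox10 among them, 18 were higher, among them the connexin Gjb1 (6.26 ± 0.22). Of 8 precursor genes 7 were lower, with Cspg4 and Pdgfra in front, and Matn4 was higher (2.18 ± 0.62). Nkx6-2 and Bcas1 stood in both the regulator and the myelin list, and Gpr17 in both the regulator and the precursor list. The counts of the lists here and below therefore share these genes. Ptprz1, Mag and Mog had chosen the cells, so genes that go with them had to differ.

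The 83 cells that passed both gates were described in mild replicate 2, the only library with at least 20 of them (27 cells). Sox10 stood at 421 CPM (exact Poisson interval 352 to 499) in these cells, against 279.5 CPM in the Ptprz1 and 223 CPM in the Mag/Mog cells of that library. Sox2 stood at 788 CPM (693 to 892), against 484 and 271 CPM. Myrf stood at 165 CPM (123 to 216), against 24.1 and 116 CPM, and Sox8 at 85.4 CPM (56.3 to 124), against 40.0 and 40.3 CPM. These 4 values were above those of either class, and their intervals did not reach them. Olig1 lay between the classes at 1095 CPM (983 to 1217), against 1467 and 638 CPM. This is 1 library, and the intervals cover counting error only. Levels also varied inside the Mag/Mog gate, where the 337 cells with 4 to 9 UMIs of Mag plus Mog, of a median depth of 2983 UMIs, held 409 CPM of Sox2 and 91.4 CPM of Myrf, against 169 and 145 CPM in the 3046 cells with 10 or more. The 225 cells with 3 UMIs held 110 CPM of Sox2, below both other bins, and 23.6 CPM of Myrf.

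Because Ptprz1 is shared with astrocytes, cells with Aqp4 and Gja1 were set against cells with Pdgfra and Cspg4, each with at least 2 UMIs of their own pair of genes and none of the other. Within the Ptprz1 gate only 1 library had 20 cells of each kind, so cells with or without Ptprz1 UMIs were used after the data had been seen, in sham replicate 1, both moderate libraries and severe replicate 2. Olig1, Olig2, Sox10, Nkx2-2 and Sox8 were lower in the Aqp4/Gja1 cells and Sox9 was higher, 6 of 7 genes tested against 17.9% of all 7726 genes (9.25% higher and 8.65% lower). Myrf was too low to be tested.

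Olig1 averaged 19.2 ± 18.4 CPM in the Aqp4/Gja1 cells and 1153 ± 511 CPM in the Pdgfra/Cspg4 cells (SD, n = 4; log2 fold change -5.59 ± 0.46, adjusted p = 0.000112). Olig2 averaged 6.30 ± 7.56 against 284 ± 110.2 CPM (-5.10 ± 0.39, adjusted p = 8.22e-05). Sox8 averaged 1.34 ± 1.93 against 54.9 ± 41.0 CPM (-4.17 ± 0.49, adjusted p = 0.000569). Sox9, the factor astrocytes keep, stood at 128 against 30.9 CPM in sham replicate 1, 112 against 51.0 and 112 against 83.2 CPM in the moderate libraries and 63.7 against 20 CPM in severe replicate 2. It was higher in the Aqp4/Gja1 cells of 4 of 4 libraries (log2 fold change 1.23 ± 0.25, adjusted p = 0.00851), and lost its call without severe replicate 2 and without the library block, with an adjusted p of up to 0.0826. Sox2 was not separated, at 409.8 ± 59.0 against 372 ± 152 CPM (0.30 ± 0.19, adjusted p = 0.339), and was higher in 2 of 4 libraries. Sox10 was lower (-2.43 ± 0.37, adjusted p = 0.00226), although it was above 0 in the Aqp4/Gja1 cells of 3 of the 4 libraries, at 82.8, 36.9 and 43.3 CPM. Fibroblast markers summed to 3901 CPM in the Pdgfra/Cspg4 cells of 1 sham library and to at most 227 CPM in those of the injured libraries. In the Aqp4/Gja1 cells of sham replicate 1 neutrophil markers summed to 1792 CPM, macrophage and microglia markers to 148 CPM and astrocyte markers to 1113 CPM. Sham replicate 2 held 11 such cells and was not in the comparison. There macrophage and microglia markers summed to 7660 CPM and astrocyte markers to 14965 CPM. In the moderate libraries astrocyte markers summed to 880 and 2250 CPM. In severe replicate 2 they summed to 805 CPM, below neuron markers at 1684 CPM. In severe replicate 1, also not in the comparison, they summed to 822 CPM, below neuron markers at 1382 CPM. The Aqp4/Gja1 cells are therefore called by these genes. The part of all these markers in the values was not tested beyond leaving out each library of the comparison. Of 29 genes of the regulator list tested 2 were higher, Sall1 (3.65 ± 0.33) and Id4 (1.73 ± 0.22). A further 10 were lower, led by Bcas1, which is also in the myelin list, and Myt1. All 6 precursor genes tested were lower, Pdgfra and Cspg4 being among the genes that chose the cells.

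Cycling Ptprz1 cells, with at least 2 UMIs of the proliferation genes Mki67 and Top2a, made up 10.0% and 12.9% of the Ptprz1 cells in the sham libraries, 51.4% and 34.5% after mild, 44.1% and 48.7% after moderate and 38.4% and 35.6% after severe injury. In the 6 injured libraries, which alone held 20 cells of each kind, cycling cells had more Sox2 and less of the other 7 factors than cells with no UMI of either gene. All 8 genes passed, against 41.5% of 9956 genes tested (20% higher and 21.5% lower). The median depth was 14953 UMIs in cycling and 8943 in non-cycling cells. The shares of the sham libraries rest on 7 and 11 cycling cells. Median UMIs per Ptprz1 cell were 5488.5 and 8196 there and 8993 to 21798 after injury. The gate counts raw UMIs, and the part of depth in these shares was not tested.

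Myrf fell by 1.70 ± 0.15 on the log2 scale (adjusted p = 1.34e-07), from 26.3, 40.2, 24.6, 41.6, 9.80 and 7.30 CPM in non-cycling to 6.59, 10.5, 10.6, 13.0, 0 and 1.84 CPM in cycling cells, in the order mild, moderate and severe. It was lower in the cycling cells of all 6 libraries. Sox8 fell by 1.29 ± 0.17 (adjusted p = 1.16e-05), from 51.7 ± 24.3 to 23.0 ± 10.2 CPM (SD, n = 6), and was lower in 6 of 6 libraries. In severe replicate 1 it moved little, from 34.3 to 32.6 CPM, and in severe replicate 2 it went from 13.0 to 9.19 CPM. Sox2 rose by 0.29 ± 0.05 (adjusted p = 0.000166), from 361 ± 105 to 436 ± 115 CPM, and was higher in 6 of 6 libraries. Nkx2-2 (-0.64 ± 0.15), Olig1 (-0.60 ± 0.06), Sox9 (-0.39 ± 0.10), Sox10 (-0.37 ± 0.06) and Olig2 (-0.36 ± 0.06) fell by less, in 6 of 6 libraries except for Sox10, which fell in 5 of 6. Without the library as a block Myrf alone passed and the calls over all genes dropped from 4129 to 851.

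**Figure D3:**
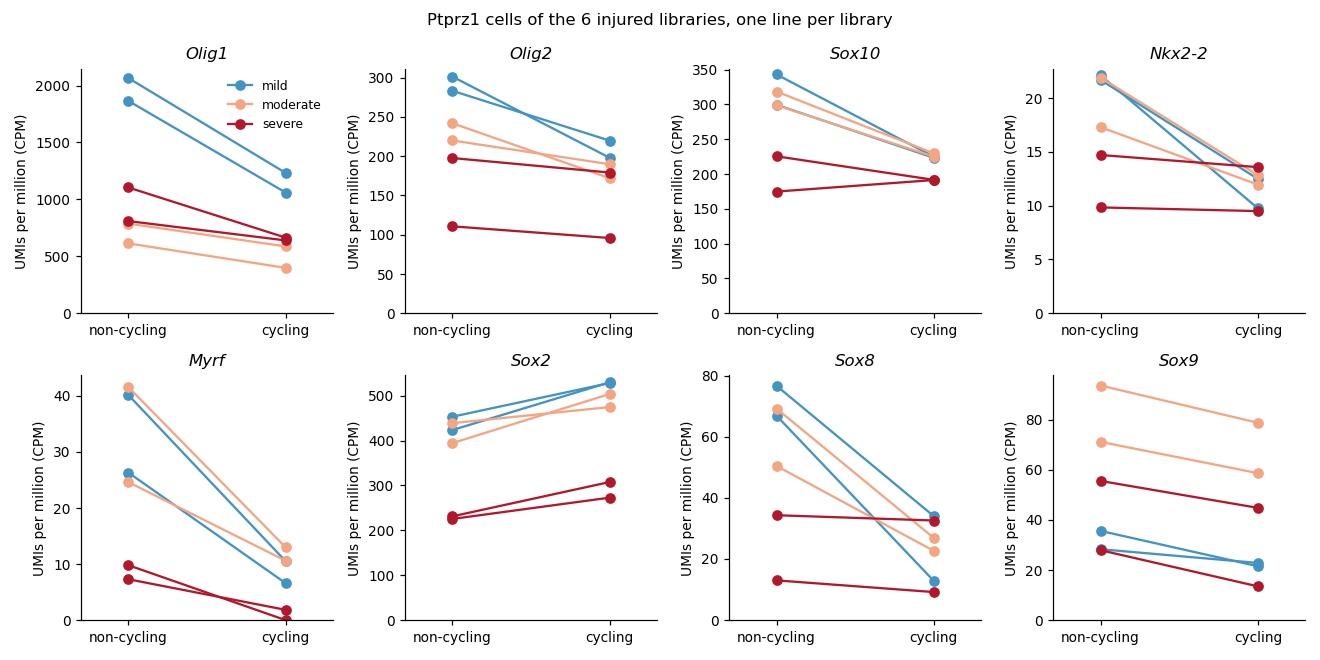
Level of each gene (CPM) in non-cycling and cycling Ptprz1 cells of the 6 injured libraries, 1 line per library, coloured by degree of injury. Lines fall for Myrf and Sox8 and rise for Sox2 in all 6 libraries.

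The members of the fixed lists split in this comparison. Of 33 genes of the regulator list tested 11 rose and 11 fell, with Prrx1 (0.53 ± 0.08) among those that rose. Bcas1 (-0.89 ± 0.10), which is also in the myelin list, and Zeb2 (-0.62 ± 0.08) led the fall. All 11 myelin genes tested fell, and 5 of 8 precursor genes fell, led by C1ql1 (-1.19 ± 0.06).

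Injured and sham libraries were compared next in the Ptprz1 cells, with all 4 groups in 1 fit. Sox8, Olig2 and Olig1 were lower after injury and no factor was higher, so 3 of 8 passed against 11.5% of the 12236 genes tested (5.25% higher and 6.25% lower). Median UMIs per Ptprz1 cell were 5488.5 and 8196 in the sham libraries and 8993 to 13660 after mild and moderate injury. After severe injury they were 17359 and 21798. Pdgfra/Cspg4 cells made up 71.4% and 40.0% in the sham libraries and 25.8% to 52.3% after injury. Pooled, Olig2 stood at 145 CPM at 2 UMIs of Ptprz1 and 214 CPM at 3 or more, and Sox8 at 26.3 and 38.3 CPM. The part of these differences was not tested beyond stricter gates and subsets of cells. In CPM, without the scaling of the fit, the 6 injured libraries lay below both sham libraries for Sox8, Olig2, Sox10 and Nkx2-2. They overlapped with them for the other 4. The share of all genes with such a separation is not given here, so this is a description only.

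Sox8 stood at 139.6 and 130.0 CPM in the sham libraries, and at 46.7 and 40.0 after mild, 43.0 and 34.2 after moderate and 38.6 and 10.9 CPM after severe injury. The highest injured value was far below the lowest sham value. The mean injury effect was -1.87 ± 0.33 on the log2 scale (adjusted p = 0.00646), and it passed in all 21 alternatives, with values from -2.14 to -1.47. In non-cycling cells alone it was -1.73 ± 0.29 (adjusted p = 0.0181), and in the Pdgfra/Cspg4 cells alone -1.90 ± 0.32 (adjusted p = 0.00527), both fits being added after the data had been seen. Without sham replicate 2 it was -1.81 (adjusted p = 0.0151).

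Olig2 stood at 519.7 and 436 CPM in the sham libraries, and at 241 and 249 after mild, 203 and 203 after moderate and 210.3 and 105 CPM after severe injury. Its injury effect was -1.12 ± 0.23 (adjusted p = 0.0114), and -1.02 ± 0.22 in non-cycling cells alone (adjusted p = 0.0377). The call was lost in 2 of 21 alternatives, without limits on UMIs and genes per cell (-0.70, adjusted p = 0.0900) and without sham replicate 1 (-0.99, adjusted p = 0.0579). The sham libraries held 70 and 85 Ptprz1 cells, which limits the precision of every sham value.

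Olig1 stood at 2244 and 1352 CPM in the sham libraries, 1539 and 1467 after mild, 671 and 492 after moderate and 998 and 742 CPM after severe injury, so the mild libraries lay between the sham libraries. Its injury effect was -0.81 ± 0.24 (adjusted p = 0.0456), and it lost its call in 13 of 21 alternatives, among them the fits without either mild or severe library, without moderate replicate 2, without sham replicate 1 (-0.41, adjusted p = 0.405) and the fit in non-cycling cells (-0.72 ± 0.27, adjusted p = 0.136). In the Pdgfra/Cspg4 cells Olig1 stood at 2743 and 2094 CPM in the sham libraries and at 698 to 1871 CPM after injury, given as a description. Over all Ptprz1 cells Nkx2-2 stood at 21.3 and 33.5 CPM in the sham libraries and at 9.21 to 16.6 CPM after injury. It had an effect of -0.87 ± 0.30 (adjusted p = 0.0858) and passed in 2 of 21 alternatives. Sox10 stood at 339 and 332 CPM and at 181 to 279.5 CPM (-0.35 ± 0.19, adjusted p = 0.257). Neither passed.

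Myrf (-0.87 ± 0.38, adjusted p = 0.151), Sox2 (0.38 ± 0.20, adjusted p = 0.231) and Sox9 (-0.42 ± 0.31, adjusted p = 0.409) did not pass. Sox2 did not follow injury as a whole, with 349 and 308 CPM in the sham libraries, 455 to 489.7 CPM in the 4 mild and moderate libraries and 239.6 and 265 CPM in the severe libraries. In CPM the mild and moderate libraries were all above and the severe libraries all below the sham libraries, a pattern noticed in these values and given as a description. With the scaling of the edgeR fit the severe libraries did not differ from sham (log2 fold change -0.005 ± 0.24, adjusted p = 0.993). The change was 0.64 ± 0.24 after mild (adjusted p = 0.115) and 0.52 ± 0.24 after moderate injury (adjusted p = 0.199).

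Set against sham one degree at a time, Sox8 alone passed in the Ptprz1 cells after mild injury (-1.57 ± 0.41, adjusted p = 0.0408), against 7.4% of the genes tested. After moderate injury Sox8 (-1.76 ± 0.41, adjusted p = 0.0250), Olig1 (-1.57 ± 0.31, adjusted p = 0.0125) and Olig2 (-1.19 ± 0.29, adjusted p = 0.0296) were lower, 3 of 8 against 7.14%. After severe injury Sox8 (-2.27 ± 0.45, adjusted p = 0.0110), Myrf (-2.07 ± 0.48, adjusted p = 0.0191) and Olig2 (-1.26 ± 0.29, adjusted p = 0.0192) were lower, 3 of 8 against 12.9%. The 3 degrees share the sham libraries. Each of these 7 calls was lost without at least 1 library. That of Sox8 was lost after mild injury without either sham, mild or moderate library (9 of 20 alternatives in all), after moderate injury without either moderate library, and after severe injury without severe replicate 2 (-1.49, adjusted p = 0.0789). Olig1 lost its call without moderate replicate 2 (-1.29, adjusted p = 0.131). Olig2 lost its call after moderate injury without sham replicate 1 or either mild or moderate library (adjusted p of up to 0.193), and both Olig2 and Myrf lost theirs after severe injury without sham replicate 1 or severe replicate 2 (adjusted p of up to 0.162). Sox9 was not called at any degree, with -1.08 ± 0.37 after mild (adjusted p = 0.0879), 0.42 ± 0.36 after moderate and -0.58 ± 0.38 after severe injury.

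**Figure D4:**
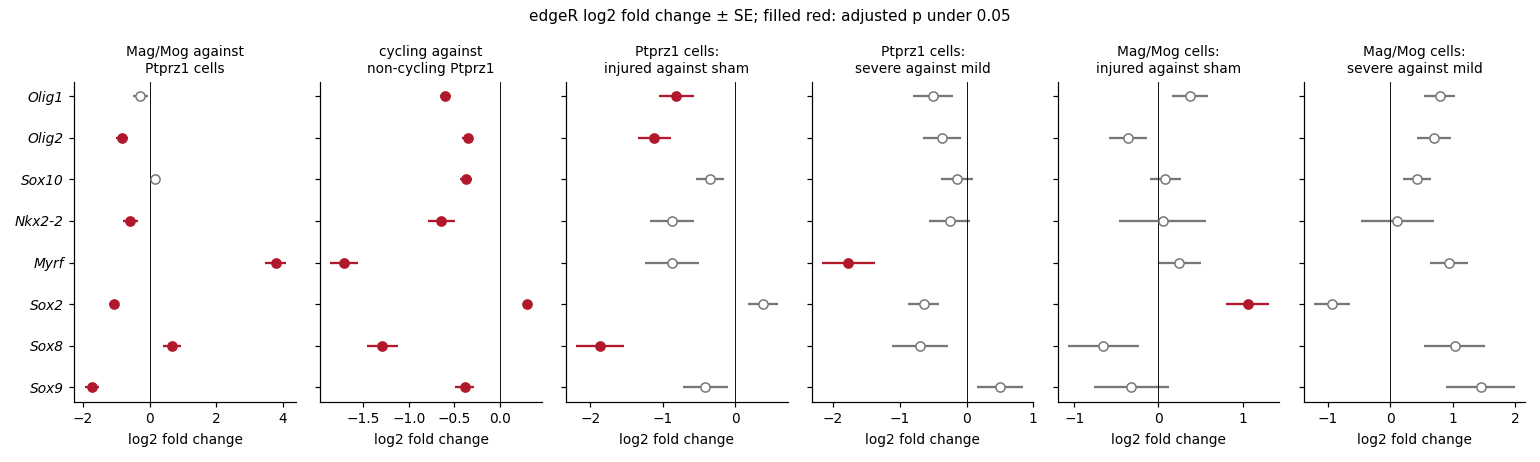
Log2 fold changes with their SE (bars) from the edgeR fits for the 8 genes in 6 comparisons, 1 panel each with its own horizontal scale; filled red points have an adjusted p under 0.05. Cycling against non-cycling cells is the panel in which all 8 genes pass, and severe against mild in Mag/Mog cells the panel in which none does.

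Sox9 changed sign with the cells admitted. Over all Ptprz1 cells it stood at 44.6 and 68.2 CPM in the sham libraries, 27.0 and 25.1 after mild, 66.4 and 84.1 after moderate and 45.3 and 19.3 CPM after severe injury. In the Pdgfra/Cspg4 cells it stood at 5.70 and 12.5 CPM in the sham libraries, resting on 2 and 4 UMIs, and at 22.8 and 22.9, 48.7 and 81.1, and 47.7 and 20.1 CPM after mild, moderate and severe injury. All 6 injured libraries were above both sham libraries there, with an effect of 2.08 ± 0.59 (adjusted p = 0.0481) in a fit added after the data had been seen. The subset held 50 and 34 sham cells, and Aqp4 and Gja1 were at 0 in it because the split had removed them. Without the Ptprz1 cells that had at least 2 UMIs of Aqp4 and Gja1 the effect was 0.95, and it did not pass. With Pdgfra/Cspg4 cells outside the Ptprz1 gate added, Sox9 stood at 30.9 CPM (16 UMIs) in sham replicate 1 and 11.9 CPM in sham replicate 2. Sham replicate 1 then lay above both mild libraries (23.1 and 23.5 CPM) and severe replicate 2. It lay below both moderate libraries and severe replicate 1 (53.1 CPM). Fibroblast markers reached 3901 CPM in these cells of 1 sham library, against at most 28.5 CPM in the sham cells of the subset. Their part was not tested. Olig2 and Sox8 fell in the subset as in the whole gate, Olig2 from 647 and 607 CPM to 185 to 293 CPM (-1.19 ± 0.21, adjusted p = 0.00662).

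**Figure D5:**
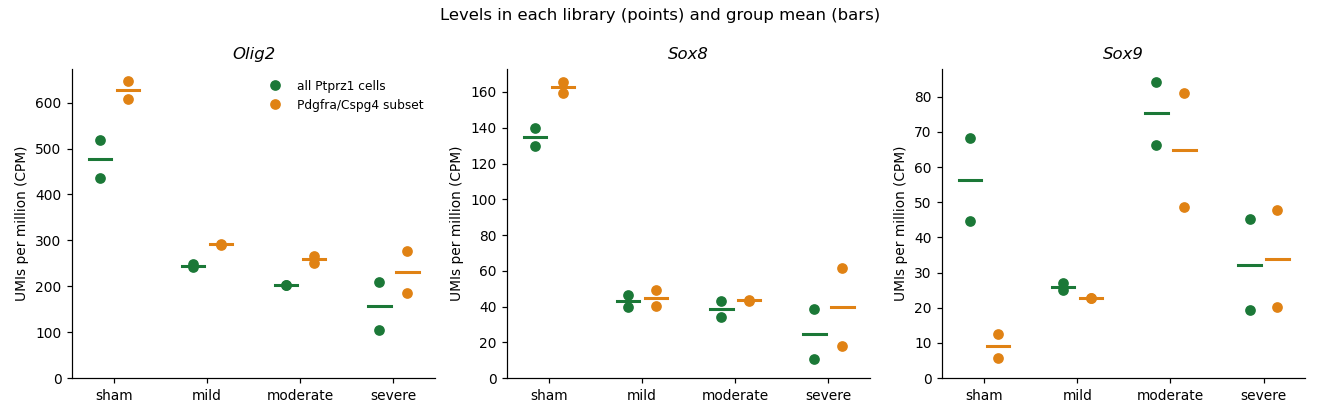
Levels of Olig2, Sox8 and Sox9 (CPM) in each library (points) with group means (bars), in all Ptprz1 cells (green) and in their Pdgfra/Cspg4 subset (orange). For Olig2 and Sox8 the sham libraries are highest in both sets of cells, and for Sox9 they are lowest in the subset, at 5.70 and 12.5 CPM.

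Among the lists, 4 of 38 other regulators passed in the Ptprz1 cells after injury, close to the 11.5% of all genes tested. The chromatin remodeller Smarca4 rose (1.09 ± 0.25), and 3 fell, among them Sox6 (-0.96 ± 0.21) and Id2 (-0.85 ± 0.22). Of 19 myelin genes 6 fell, led by Ugt8 (-2.15 ± 0.29) and Mbp (-1.41 ± 0.22), and Lpar1 rose (1.31 ± 0.37). Of 9 precursor genes 6 fell, led by Matn4 (-2.69 ± 0.37) and Cspg5 (-2.59 ± 0.44). The median log2 fold change was -0.07 over the regulators, -1.68 over the myelin genes and -1.06 over the precursor genes, against -0.03 over all genes tested.

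Severe and mild injury differed in the Ptprz1 cells for 1 of the 8 factors, Myrf, against 6.1% of the 12236 genes tested (2.8% higher and 3.29% lower). Myrf stood at 3.99 and 4.34 CPM in the severe and at 11.8 and 24.1 CPM in the mild libraries, a log2 fold change of -1.77 ± 0.39 (adjusted p = 0.0233). In the non-cycling cells the change was -1.78 ± 0.42 (adjusted p = 0.0399). The call was lost in 5 of 21 alternatives, namely without doublet removal (-1.26), without mild replicate 2 (-1.14), without severe replicate 1 (-1.72), without severe replicate 2 (-1.96) and in the Pdgfra/Cspg4 cells alone (-1.73 ± 0.56, adjusted p = 0.106). Sox2 was lower by 0.64 ± 0.23 without passing (log2 fold change -0.64, adjusted p = 0.124), and passed with library size as the only scaling. Sox8 (-0.70 ± 0.42, adjusted p = 0.340) passed without severe replicate 1 (-1.63, adjusted p = 0.0336) and stood at 0.062 without severe replicate 2. With library size only, the median of all genes moved from -0.05 to -0.365 and the calls from 343 higher and 403 lower to 221 higher and 1234 lower. Of 38 other regulators 5 were lower after severe injury, led by Tcf7l2 (-1.47 ± 0.26), a differentiation factor, and Chd7 (-1.41 ± 0.30), and none was higher. Of 19 myelin genes 5 were lower, led by Mbp (-1.76 ± 0.28), and Car2 was higher (2.94 ± 0.59). Of 9 precursor genes 3 were lower, led by Tnr (-1.79 ± 0.27). The severe values of Myrf in Ptprz1 cells rest on 6 and 33 UMIs. Macrophage and microglia markers were lower in the severe libraries, as given above. Myrf was also lower there in macrophage/microglia-gate cells, at 0.455 and 0.184 against 1.53 and 2.41 CPM in the mild libraries. In cells of no gate it stood at 1.73 and 2.38 against 6.89 and 24.8 CPM, while in Mag/Mog cells it was not lower, as given below. The part of these differences was not tested.

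In Mag/Mog cells 1 of the 8 factors passed between injured and sham libraries, Sox2, against 3.83% of the 9788 genes tested (1.45% higher and 2.38% lower). Sox2 stood at 84.8 and 77.1 CPM in the sham libraries, 178 and 271 after mild, 177 and 232 after moderate and 119 and 80.2 CPM after severe injury, so 5 of 6 injured libraries were above both sham libraries. The effect was 1.06 ± 0.26 (adjusted p = 0.0493), and lost its call in 12 of 18 alternatives, among them without any 1 of the sham, mild and moderate libraries, with values from 0.94 to 1.26 and adjusted p of up to 0.327. The number of genes called fell from 375 to 5 without sham replicate 1 and rose to 940 without sham replicate 2, whose Mag/Mog class held 36 cells. Set against sham by degree, Sox2 passed after mild injury (1.46 ± 0.30, adjusted p = 0.0223), where 7.89% of genes did, and lost its call in 3 of 17 alternatives, without sham replicate 1 or either mild library. In macrophage/microglia-gate cells Sox2 stood at 0.386 and 0.332 CPM in the sham and 2.08 to 3.05 CPM in the mild and moderate libraries. After severe injury it stood at 0.171 and 0.337 CPM there. In cells of no gate it stood at 30.5 and 2.47 CPM in sham and 144 to 360 CPM after mild and moderate injury. Severe libraries held 4.31 and 58.3 CPM there. The part of these differences was not tested. In Mag/Mog cells no factor passed after moderate or severe injury, where 2.46% and 1.8% of genes did. The other 7 factors did not pass for injury as a whole, from Sox8 at -0.66 ± 0.42 (adjusted p = 0.376) to Olig1 at 0.38 ± 0.21 (adjusted p = 0.309). None of 28 other regulators tested passed with edgeR, 1 of 19 myelin genes fell, Opalin (-0.83 ± 0.18), and 1 of 5 precursor genes rose, Matn4 (2.11 ± 0.34).

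Between severe and mild injury none of the 8 factors passed in Mag/Mog cells with edgeR, where 4.62% of genes did (1.88% higher and 2.74% lower). Olig1 stood at 1092 and 1063 CPM in the severe and 832 and 638 CPM in the mild libraries (0.79 ± 0.25, adjusted p = 0.102). Myrf stood at 218 and 122 against 94.1 and 116 CPM (0.93 ± 0.30, adjusted p = 0.106), and Sox2 at 119 and 80.2 against 178 and 271 CPM (-0.93 ± 0.29, adjusted p = 0.0894). In CPM the severe and mild libraries did not overlap for these 3 genes, nor for Olig2, Sox8 and Sox9. The share of all genes for which this held is not given here, so it is a description only. With library size as the only scaling the calls over all genes moved from 184 higher and 268 lower to 132 higher and 533 lower, and Sox2 then passed. With no filter on low counts Myrf, Sox2, Sox8 and Sox9 passed, and without severe replicate 2 Myrf and Sox9 did. None of 28 other regulators passed, and of 19 myelin genes 3 were higher after severe injury, led by Opalin (1.68 ± 0.24) and Car2 (2.44 ± 0.44). Of 5 precursor genes 1 was lower, Matn4 (-1.39 ± 0.32).

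Whether injury acted differently on the classes was tested as the difference of the injury effects, in a comparison added after the data had been seen. None of the 8 factors passed with edgeR, where 0.523% of 12230 genes did (0.27% on the higher and 0.253% on the lower side). Olig1 (-1.16 ± 0.39, adjusted p = 0.175) and Sox2 (-0.66 ± 0.26, adjusted p = 0.237) had the smallest adjusted p among the 8. The falls of Sox8 and Olig2 in Ptprz1 cells were therefore not shown to differ from the changes in Mag/Mog cells, with differences of -1.19 ± 0.56 (adjusted p = 0.326) and -0.74 ± 0.37 (adjusted p = 0.352).

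At full depth 66.9% of Ptprz1 cells held both Olig1 and Olig2 and 64.9% held both Olig2 and Sox10, while Sox10 was seen with Sox9 in 24.2% and with Myrf in 14.5%. Of all 3638 Ptprz1 cells, 3106 had an Olig1 UMI, 3149 had Sox10 and 2591 had Olig2. Of those with an Olig2 UMI 93.9% also had Olig1, and 91.2% also had Sox10. Of those with a Sox9 UMI, 84.4% had Sox10 and 70.1% had Olig2, which is close to the shares of all cells of the gate. Of Mag/Mog cells with a Myrf UMI 90.7% had Sox10 and 64.2% had Sox2, where 2907 and 2085 of all 3608 cells had them. Sox8 and Sox9, related factors, were seen together in 5.83% of Ptprz1 cells, from 0 to 9.86% between libraries. These shares rise with the depth of a cell and carry no test.

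Across 67 sums of a library and a class with at least 20 cells, over all cell classes, the genes most like each factor were found among 7630 genes by Pearson's r of log2(CPM + 1), as a description. Olig1 and Olig2 were each other's nearest gene (r = 0.94), followed by Scrg1 for Olig1 and Bcas1 for Olig2. Olig2 was also nearest to Nkx2-2 (r = 0.93) and second to Sox10 (r = 0.92) after Wasf1 (r = 0.93). Myrf was nearest to Aatk (r = 0.91), Gnao1 and Sh3gl3, Sox8 to Plppr5 (r = 0.92), Minar2 and Mmd2, Sox2 to Ppp2r2b (r = 0.93), Fam181b and Tubb2b, and Sox9 to Efs (r = 0.92), Ncam1 and Ntrk2. Among the factors themselves Myrf and Sox9 were least alike (r = 0.54). The sums of a library share its depth and its free RNA, and most of the spread is between lineage and other classes.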

How the data were processed

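The authors deposited, per library, raw UMI counts of 32623 genes per cell, made with Cell Ranger on Rnor_6.0 (version 5.0.1 per the file headers, 6.0.1 in the study's methods), without normalization. Cells with over 10% mitochondrial UMIs, then the 7.7% with the highest Scrublet score per library (scanpy 1.11.5), then cells beyond the mean ± 2 SD of UMIs or genes were removed, leaving 55455 of 68658. The factors, gates and gene lists were chosen with earlier results of these data known. Counts were summed per library and class (at least 20 cells), and tested with edgeR 4.0.16 (R 4.3.3; filterByExpr, TMM, quasi-likelihood, Benjamini-Hochberg at 0.05). Comparisons of classes had the library as a block, and comparisons of injury had all 4 groups in 1 fit. In this fit each degree was also tested against sham for the 8 factors. The steps were tested on simulated counts with known changes in 100 genes each. Of 2-fold changes the fits recovered 81% between the classes and 98% between cycling and non-cycling cells. For injury they recovered 13% in Ptprz1 and 18% in Mag/Mog cells, and 76% and 89% of 4-fold changes. False calls were 8 of 185, 16 of 212, 1 of 90 and 6 of 113 in the same order of comparisons. The changed genes were drawn above a minimum of UMIs, and the simulated counts held no other differences between classes or groups. Recovery of sparser genes, or beside many real changes, was therefore not measured. A factor that did not pass for injury is therefore not shown to be unchanged. Named genes were the 8 factors and, per list, the 2 with the smallest adjusted p in each direction, and the 3 nearest by r. Other types were gated as astrocyte (Aqp4, Gja1), macrophage/microglia (Csf1r, Cd68, Mrc1), neutrophil (S100a8, S100a9), T/NK, B, fibroblast, endothelial and erythroid cells by fixed markers. A cell took such a class only if it passed exactly 1 of these gates and neither the Ptprz1 nor the Mag/Mog gate. Nkx2-9, Sox3, Sox4, Nfix, Trf and Lhfpl3 were not analysed here, and some listed genes are not reported here. Alternatives covered doublets, mitochondrial and UMI limits, gates, scaling, DESeq2 1.42.0, low-count filter, blocks, groups in the fit and each library left out. The planned comparison of Aqp4/Gja1 with Pdgfra/Cspg4 cells within the Ptprz1 gate could not be fitted, with 1 library of 20 cells of each kind, and was replaced. Same-numbered libraries of different groups did not deviate together (correlations of -0.126 to 0.124), so numbers were not taken to pair them. Intervals and shares used scipy 1.17.1, pandas 2.3.3, numpy 2.4.6 and Python 3.11.15, and figures matplotlib 3.10.9.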

Additional observations from a re-analysis of the deposited data

Results flagged for a closer look

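Signals of the factors outside the compared classes were noted where the share of cells with a UMI, after thinning to 1000 UMIs, lay above that of erythroid-gate cells (0.212% for Olig1, 0.106% for Sox2, and 0 of 945 for most others, which allows 0.317%). In the 158 astrocyte-gate cells 26.6% had Sox2 and 8.86% had Sox9. In neutrophil-gate cells 0.993% had Sox10, and in fibroblast-gate cells 0.866% had Sox8, most of whose UMIs at full depth (70 of 111) came from severe replicate 2. Of the 6137 neutrophil-gate cells 4179 came from sham replicate 1, while 809 of the 953 erythroid-gate cells came from severe replicate 2. The neutrophil share is thus set against the background of another library. Cells of no gate had Olig1 in 5.16%, Olig2 in 1.91%, Sox10 in 2.85%, Sox2 in 3.87%, Sox8 in 0.602% and Sox9 in 0.587%, over the 6643 of 10498 cells deep enough to be thinned. The 83 cells of both gates had Olig1 in 53.0%, Olig2 in 30.1%, Sox10 in 37.3%, Nkx2-2 in 6.02%, Myrf in 12%, Sox2 in 49.4%, Sox8 in 13.3% and Sox9 in 2.41%.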

How the results depend on the processing

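Under the alternatives other than leaving out a single library, 704 fold changes of single factors kept direction and side of the threshold. A further 49 lost their call, 10 gained 1 and 15 turned sign. These alternatives include fits of severe against mild without the sham and moderate libraries. With each library left out the counts were 453, 51, 3 and 16. Levels per class moved by less than 1 SD in all 32 values. The causes of the changes below were not tested unless the setting itself leaves fewer cells, libraries or genes. Genes called between cycling and non-cycling cells numbered 851 without the library block. For injury in Ptprz1 cells (1408 called) there were 2198 with no filter on low counts, 309 in non-cycling and 773 in Pdgfra/Cspg4 cells. With mild, moderate and severe merged into a single injured group there were 318. For severe against mild in Ptprz1 cells (746) there were 1455 with library size only and 1380 with no filter. There were 1320 in a fit of only the groups compared, 406 in non-cycling and 337 in Pdgfra/Cspg4 cells. For injury in Mag/Mog cells (375) there were 77 with no limits on UMIs and genes, 1759 with no filter and 1 with the degrees merged. For severe against mild in Mag/Mog cells (452) there were 285 with no doublet removal, 293 with stricter gates and 1215 with no filter. For Aqp4/Gja1 against Pdgfra/Cspg4 cells (1383) there were 2561 with no limits on UMIs and genes, 2629 with no filter and 520 without the library block. For the difference of injury effects (64) there were 146 with a mitochondrial limit of 20%, 21 with no limits on UMIs and genes, 120 with stricter gates, 34 with cells of both gates counted as Mag/Mog, 272 with DESeq2, 337 with no filter and 24 in non-cycling cells.

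Same-numbered libraries were not paired by the data, so the replicate block says nothing of a weaker effect; with that block 1031 and 490 genes were called in Ptprz1 cells and 96 and 335 in Mag/Mog cells for injury and for severity, and Olig1 in Ptprz1 cells (-0.79, adjusted p = 0.0564) and Sox2 in Mag/Mog cells (1.05, adjusted p = 0.0891) lost their calls. Signs turned for Sox10 between the classes (-0.17 with library size only, -0.032 against non-cycling cells). They turned for Sox9 with injury in Ptprz1 cells (0.95 without Aqp4/Gja1 cells, 2.08 in Pdgfra/Cspg4 cells) and for Nkx2-2 with severity there (0.093 in Pdgfra/Cspg4 cells). Nkx2-2 with injury in Mag/Mog cells, at 0.05, turned to -0.052 with no doublet removal, -0.048 with no limits on UMIs and genes and -0.063 with stricter gates. It turned to -0.022 with library size only, -0.035 with DESeq2 and -0.025 with the degrees of injury merged. With severity there it turned to -0.11 with library size only. The difference of the injury effects of Sox9 turned to -0.22 with a mitochondrial limit of 20% and with DESeq2 and to -0.019 with library size only.

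With each library left out, genes called ran from 502 (without sham replicate 1) to 1488 for injury and from 104 (without mild replicate 2) to 1477 (without either sham library) for severity in Ptprz1 cells. In Mag/Mog cells they ran from 5 (without sham replicate 1) to 940 (without sham replicate 2) for injury and from 42 (without mild replicate 2) to 778 (without sham replicate 2) for severity. They ran from 487 (without moderate replicate 2) to 2286 (without sham replicate 1) for Aqp4/Gja1 cells and from 1 (without sham replicate 1) to 113 (without mild replicate 2) for the difference of injury effects. Sham and injured groups then had a single library, assumed to vary like the other groups. Of the fold changes of factors, signs then turned only where no call had been made. In Ptprz1 cells Sox9 with injury ran from -0.66 to 0.075 (without sham replicate 2), and with severity Olig2 ran from -0.86 to 0.0089, Nkx2-2 from -0.44 to 0.033 and Sox8 from -1.63 to 0.062 (each highest without severe replicate 2), and Sox9 from -0.069 (without severe replicate 1) to 1.03. In Mag/Mog cells Nkx2-2 ran from -0.51 to 0.30, Sox8 from -1.35 to 0.069 and Sox9 from -0.63 to 0.99 with injury, and Nkx2-2 from -0.19 to 0.64 with severity. The difference of injury effects of Sox9 ran from -1.68 (without sham replicate 1) to 0.69 (without sham replicate 2).

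Shares of cells, as means over libraries, depend on depth by construction. Without thinning they were 86.2% for Olig1, 71.7% for Olig2, 83.3% for Sox10, 13.8% for Myrf and 83% for Sox2 in Ptprz1 cells, and 92.0%, 61.6%, 86.0%, 77.1% and 57.0% in Mag/Mog cells. At 500 UMIs they were 13.8% for Sox10 and 15.8% for Sox2 in Ptprz1 cells, and 30.6% for Olig1, 5.07% for Olig2, 11.7% for Sox10 and 9.11% for Myrf in Mag/Mog cells. Depth limits Nkx2-2, Myrf, Sox9 and Sox8 in Ptprz1 cells, where 1.43%, 2.42%, 4.35% and 5.15% of cells held a UMI at 1000 UMIs. The comparison within the Ptprz1 gate was not run, for want of libraries.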
